A study of Mus musculus with 34 samples.

Results

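The 39 genes described here carry out mitosis. They were chosen by name from a table of 48709 genes, as members of the spindle, the kinetochore, the cytokinesis machinery and the mitotic kinases, and all 39 were found in the table and passed the low-count filter that left 17616 genes for testing. The study followed mice after partial loss of insulin-producing beta cells and sequenced RNA of pancreatic islets prepared with a stranded mRNA kit. All libraries, controls included, came from mice of the RIP-DTR HTZ genotype, in which the rat insulin promoter drives the diphtheria toxin receptor, so that diphtheria toxin (DT) kills cells that express it. The other ablating agent, streptozotocin (STZ, 75 mg/kg), is a toxin taken up by beta cells through a glucose transporter. The labels give neither the age nor the sex of the mice.

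The 33 libraries assigned to a group fell into 9 groups. Untreated islets with no stated time or diet (CTRL) gave 3 libraries. Islets taken 5 days (DT 5 DPA) and 30 days (DT 30 DPA) after ablation with DT gave 4 libraries each. The other 6 groups were taken at 10 weeks and are marked SD or HFD in the titles, abbreviations the labels do not spell out. On SD, 3 libraries were from untreated mice (CTRL SD), 4 from mice given DT (DT SD) and 4 from mice given STZ (STZ SD). On HFD the numbers were 4 untreated (CTRL HFD), 3 with DT (DT HFD) and 4 with STZ (STZ HFD). Another library, whose title and treatment label disagree, entered no comparison. Libraries held 11083117 to 18918348 counts, and the 39 genes together took between 0.00718% and 0.235% of them, with no count of 0 in any of the 33. No label says whether replicates came from separate mice, so p-values measure the spread between these libraries. Ins2, the main insulin transcript of the mouse, was at or above 19244 CPM (counts scaled to a common library size) in each of the 33 libraries, and the summed level of beta cell genes was lowest in DT HFD replicate 2.

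Entry into mitosis is driven by cyclin-dependent kinase 1 bound to A- and B-type cyclins. Aurora and Polo-like kinases then build the spindle, the kinetochores hold each chromosome to spindle microtubules, and the spindle checkpoint delays separation until all are attached. The anaphase-promoting complex finally tags cyclin B and securin for destruction, separase cuts the cohesin that joins sister chromatids, and a contractile ring divides the cell. Transcripts of these genes accumulate in the G2 and M phases and are scarce in resting cells. Adult beta cells divide rarely, whereas immune cells in and around islets can divide fast.

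The promoters of many such genes share 2 short elements. The cell cycle homology region (CHR), read here as TTTGAA or TTCGAA on either strand, is bound by the MuvB core of the DREAM complex, which represses in resting cells, and by the complex of MuvB with B-MYB and FOXM1, which activates in G2 and M. The CCAAT box, searched on both strands, is bound by NF-Y. In RefSeq promoters (GRCm38.p6) 33 of the 39 genes had an entry. In the 250 bases before the start, 13 of these 33 (39.4%) held a CHR, against 17.4% of 27025 promoters. In the last 60 bases before the start the shares were 24.2% and 3.39%. A CCAAT box was present in 25 of the 33 (75.8%), against 34.5% of all promoters, and both elements in 33.3% against 6.21%. Among DNA replication genes with an entry the CHR was found in 6 of 29 (20.7%) and the CCAAT box in 16 of 29 (55.2%). Where the motifs touch, they can share no more than an end base. A match describes the letters only and shows no binding in these islets.

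The stretches below show both elements, in capitals, in 5 genes that fell between 5 and 30 days after DT. They are the 5 with the smallest adjusted p among those whose promoter holds a CHR, and each runs 5′ to 3′ on the gene's own strand. Espl1 lies at chr15:102296229-102296292 on the plus strand, Cdk1 at chr10:69352913-69353140 on the minus strand, Ect2 at chr3:27153879-27154012 on the minus strand, Ccnf at chr17:24251410-24251576 on the minus strand and Kif11 at chr19:37376317-37376381 on the plus strand.
Espl1: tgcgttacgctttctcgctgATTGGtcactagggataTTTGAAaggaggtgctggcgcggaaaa
Cdk1: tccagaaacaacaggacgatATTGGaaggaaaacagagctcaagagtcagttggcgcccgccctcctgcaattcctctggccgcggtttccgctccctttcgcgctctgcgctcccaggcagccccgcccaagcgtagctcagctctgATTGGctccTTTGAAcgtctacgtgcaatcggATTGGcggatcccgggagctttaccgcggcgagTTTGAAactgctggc
Ect2: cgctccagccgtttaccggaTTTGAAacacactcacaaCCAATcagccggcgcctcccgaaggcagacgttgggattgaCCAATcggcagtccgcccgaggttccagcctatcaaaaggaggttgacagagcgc
Ccnf: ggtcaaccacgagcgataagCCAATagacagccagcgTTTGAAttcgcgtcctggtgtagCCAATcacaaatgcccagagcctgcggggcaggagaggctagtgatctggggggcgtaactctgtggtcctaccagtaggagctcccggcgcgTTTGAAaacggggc
Kif11: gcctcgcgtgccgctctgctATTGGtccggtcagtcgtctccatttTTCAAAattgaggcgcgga
In Espl1, which encodes separase, the CHR began 27 bases before the start and the CCAAT box, read as ATTGG on this strand, 44 bases before it. Kif11, the motor that pushes spindle poles apart, had the same pair at 19 and 45 bases, with the CHR on the other strand. Cdk1 held 2 CHR elements, 71 and 15 bases before the start, and 3 CCAAT boxes. Ccnf, a substrate-binding cyclin of an SCF ubiquitin ligase, also held 2 CHR elements, 130 and 14 bases before the start. In Ect2, which activates RhoA at the division site, the single CHR began 114 bases before the start. All distances are from the RefSeq start. In GENCODE M21, Espl1 begins at 102296266, Cdk1 at 69352938 and Ccnf at 24251484. By that annotation the CHR of Espl1 and the nearer CHR of Cdk1 and of Ccnf lie within the gene.

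The 39 genes are spread over 16 chromosomes, with at most 6 on any of them, and all are protein coding. Per unit of length they also differed. On the deposited TPM scale, which corrects for transcript length, the median level over the 33 libraries was 9.21 for Incenp, the scaffold of the chromosomal passenger complex, 7.31 for Cdc20, which activates the anaphase-promoting complex, and 7.29 for Top2a, topoisomerase II alpha. On that scale the lowest was the checkpoint kinase Ttk at 0.674. Mki67, which coats mitotic chromosomes and encodes the Ki-67 antigen, stood at 7.03 TPM. CPM values, computed from the counts with edgeR's TMM scaling and used from here on, do not correct for length and are compared only between libraries.

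Summed over the 39 genes, the level was 383, 568 and 184 CPM in the CTRL libraries and 962, 751, 682 and 726 CPM at DT 5 DPA. It was 402, 145, 345 and 161 CPM at DT 30 DPA. The 4 libraries at 5 days therefore lay above every CTRL library and every library at 30 days, and the last 2 groups overlapped. At 10 weeks on SD the sum was 224, 245 and 253 CPM in CTRL, 195, 258, 91.8 and 278 CPM after DT and 501, 169, 178 and 139 CPM after STZ. On HFD it was 369, 471, 441 and 230 CPM in CTRL, 460, 1937 and 926 CPM after DT and 313, 662, 317 and 249 CPM after STZ. The highest library of all was DT HFD replicate 2, and the lowest was DT SD replicate 3. In whole islets, fewer cells of a type and less RNA per cell cannot be told apart.

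**Figure D1:**
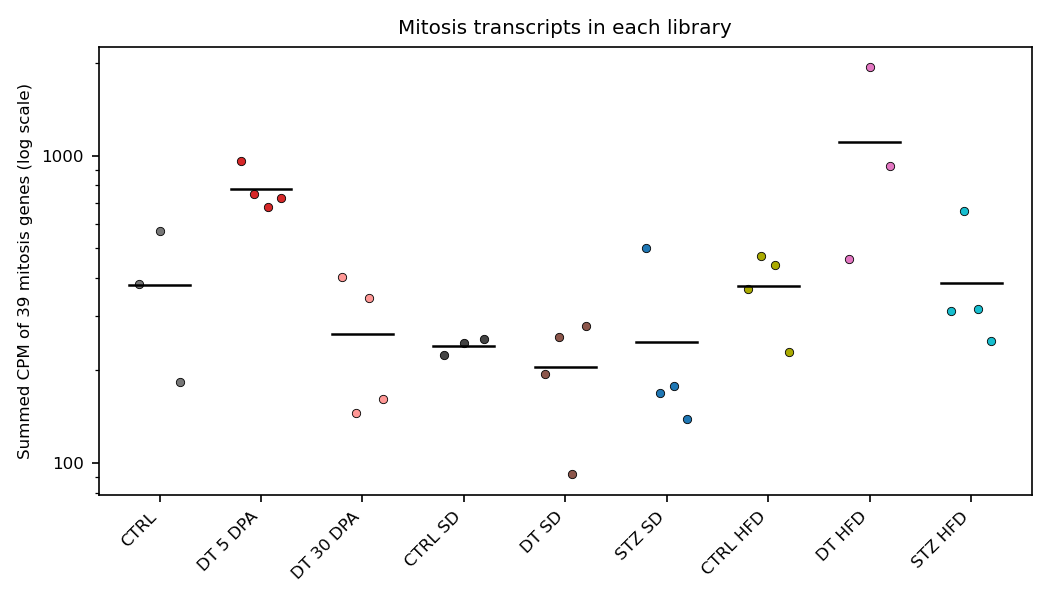
Summed CPM of the 39 mitosis genes (log scale) in each of the 33 libraries, by group; points are libraries and bars are group means. The 4 libraries at DT 5 DPA sit between 682 and 962 CPM, above all 3 CTRL libraries, and DT HFD spreads from 460 to 1937 CPM.

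The genes kept nearly the same order of groups. DT HFD had the highest mean CPM for 33 genes and DT 5 DPA for the other 6 (Cdk1, Melk, Aurkb, Ube2c, Espl1 and Anln), and for each gene the second-highest mean was in the other of these groups. DT SD had the lowest mean for 28 genes, CTRL SD for 6, STZ SD for 4 and DT 30 DPA for 1, Kif11. DT HFD replicate 2 was the highest library for 38 of 39 genes. The exception was Anln, the actin-binding scaffold of the contractile ring, which was highest in DT 5 DPA replicate 3 at 17.2 CPM. DT SD replicate 3 was the lowest library for 24 genes.

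The genes differed in how far they ranged over the 33 libraries. Racgap1, part of the centralspindlin complex that positions the cleavage furrow, had a highest level 5.53 times its lowest. For Anln this ratio was 9.74 and for the kinase Aurka 10.7. At the other end it was 55.9 for Mki67, 60.9 for survivin (Birc5), 73.2 for Aurkb and 144 for cyclin B2 (Ccnb2). The low end of Ccnb2 was a count of 2 in DT SD replicate 3, so that ratio rests on very few reads. Within groups the spread was smallest in CTRL SD, where the median gene's highest library was 1.37 times its lowest, and at DT 5 DPA, where it was 1.49 times. It was 3.47 times in CTRL, 3.98 times in DT HFD and 4.35 times in STZ SD.

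**Figure D2:**
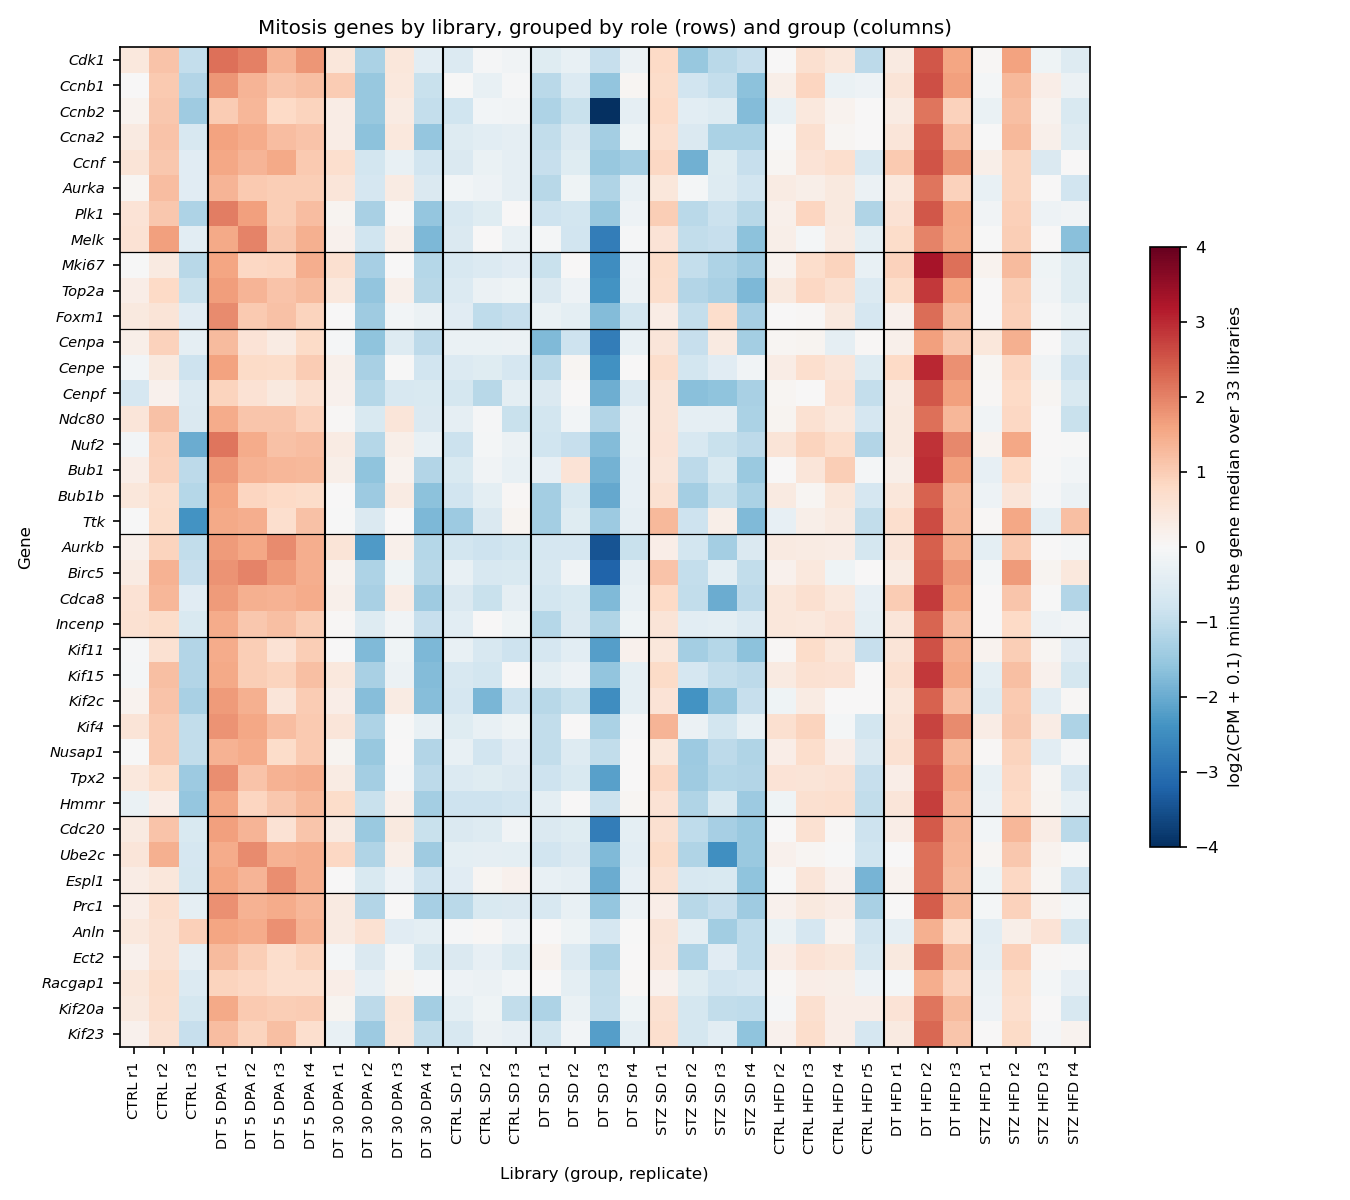
Level of each of the 39 genes (rows, by role) in each of the 33 libraries (columns, by group), as log2(CPM + 0.1) minus the gene's median over the libraries; red is above and blue below that median. Whole columns change colour together, as in DT HFD replicate 2 (red for all genes) and DT SD replicate 3 (blue), while Anln and Racgap1 are paler than the rest.

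At 5 days after DT, all 39 genes were estimated above CTRL, and none passed the test. The median log2 fold change was 0.95 (range 0.42 to 1.57), against -0.05 over all genes tested, of which 44.9% were estimated above 0. By edgeR's quasi-likelihood test with Benjamini-Hochberg adjustment over all genes, used for every adjusted p below, 0 of 39 were called, against 3.8% of all genes called higher and 5.39% called in either direction. An unadjusted p below 0.05 was reached by 12 of 39, against 19.1% of all genes, and DESeq2's Wald test called 2, Espl1 and Hmmr. For 23 of the 39 genes every library at 5 days lay above every CTRL library, as it did for 9.64% of all genes.

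Espl1 (separase) had the smallest adjusted p in this comparison. Its level was 6.08, 6.89 and 3.01 CPM in CTRL and 15.2, 12.9, 18.4 and 13.7 CPM at DT 5 DPA. The groups did not overlap, and the estimate was 1.495 on the log2 scale (SE 0.53, adjusted p = 0.104). Hmmr, a hyaluronan receptor that also binds spindle microtubules, was at 4.28, 6.23 and 1.72 CPM in CTRL and at 15.2, 9.39, 11.1 and 12.8 CPM at 5 days. All 4 libraries again lay above the 3 controls (1.57, SE 0.56, adjusted p = 0.107). Prc1, which bundles the microtubules of the central spindle, had its highest CTRL library at 16.2 CPM and its lowest library at 5 days at 25.6 CPM (1.29, SE 0.50, adjusted p = 0.144).

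Among the kinases, Cdk1 was at 6.89, 11.6 and 2.64 CPM in CTRL and at 24.0, 21.4, 13.3 and 17.8 CPM at DT 5 DPA. The groups did not overlap (1.44, SE 0.60, adjusted p = 0.171). Aurkb, the kinase of the chromosomal passenger complex, had the same size of difference (1.44, SE 0.59, adjusted p = 0.171). For cyclin B1 (Ccnb1), the partner of Cdk1, the estimate was 1.16 (SE 0.61, adjusted p = 0.299), and for Foxm1, which activates late cell-cycle genes, 1.11 (SE 0.49, adjusted p = 0.198). Mki67 was at 38.8, 49.4 and 17.8 CPM in CTRL and at 116, 69.3, 70.7 and 107 CPM at 5 days (1.36, SE 0.62, adjusted p = 0.224), and the estimate for Top2a was 1.16 (SE 0.60, adjusted p = 0.296). The smallest differences were in the centromeric histone Cenpa (0.42, adjusted p = 0.712) and in Racgap1 (0.47, adjusted p = 0.44). For both of these genes the groups overlapped.

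By role, the median log2 fold change at 5 days lay between 0.91 for the mitotic cyclins and kinases and 1.16 for Mki67, Top2a and Foxm1, with the other roles in between. Of 63 other mitosis genes, 2 were called higher, Fam83d (1.68, SE 0.46, adjusted p = 0.0271) and Cenpn (1.61, SE 0.47, adjusted p = 0.039), and the median was 0.84. Of 36 DNA replication genes 1 was called higher, cyclin E2 (Ccne2, 1.18, SE 0.31, adjusted p = 0.0227), with a median of 0.57. Of 20 genes for E2F, DREAM and MuvB factors 1 was called higher, E2f1 (1.00, SE 0.29, adjusted p = 0.0369), and the median was 0.09. None of 15 anaphase-promoting complex genes, which include the activator Fzr1, was called (2 with an unadjusted p below 0.05, median 0.05).

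Markers of other cells moved alongside. The summed level of 10 macrophage genes was 4962 to 7323 CPM at DT 5 DPA against 686 to 1755 CPM in CTRL, and 9 of 10 rose. The 10 mesenchymal genes summed to 3356 to 4529 CPM against 853 to 1565 CPM, and 4 of 10 rose. T cell and B cell genes were not called in either direction (0 of 10 and 0 of 9, with medians of -1.46 and -1.11, and 4 and 2 with an unadjusted p below 0.05), and 1 of 7 germinal centre B cell genes rose. The part of these cells in the mitosis values was not tested. DT 5 DPA replicates 1, 2 and 4 and CTRL replicate 2 also held enterocyte RNA, above 500 CPM over 10 enterocyte genes. DT 5 DPA replicate 3 held 26.9 CPM. Its mitosis sum, 682 CPM, was the lowest at 5 days and lay above all 3 CTRL libraries. The part of enterocyte RNA in these values was not tested. CTRL replicate 2 had the highest T cell sum of CTRL, 824 CPM, and was the highest CTRL library for 38 of 39 mitosis genes. Without it 1 mitosis gene was called, and the median was 1.52. Without CTRL replicate 3, the lowest CTRL library, 0 were called and the median was 0.63.

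**Figure D3:**
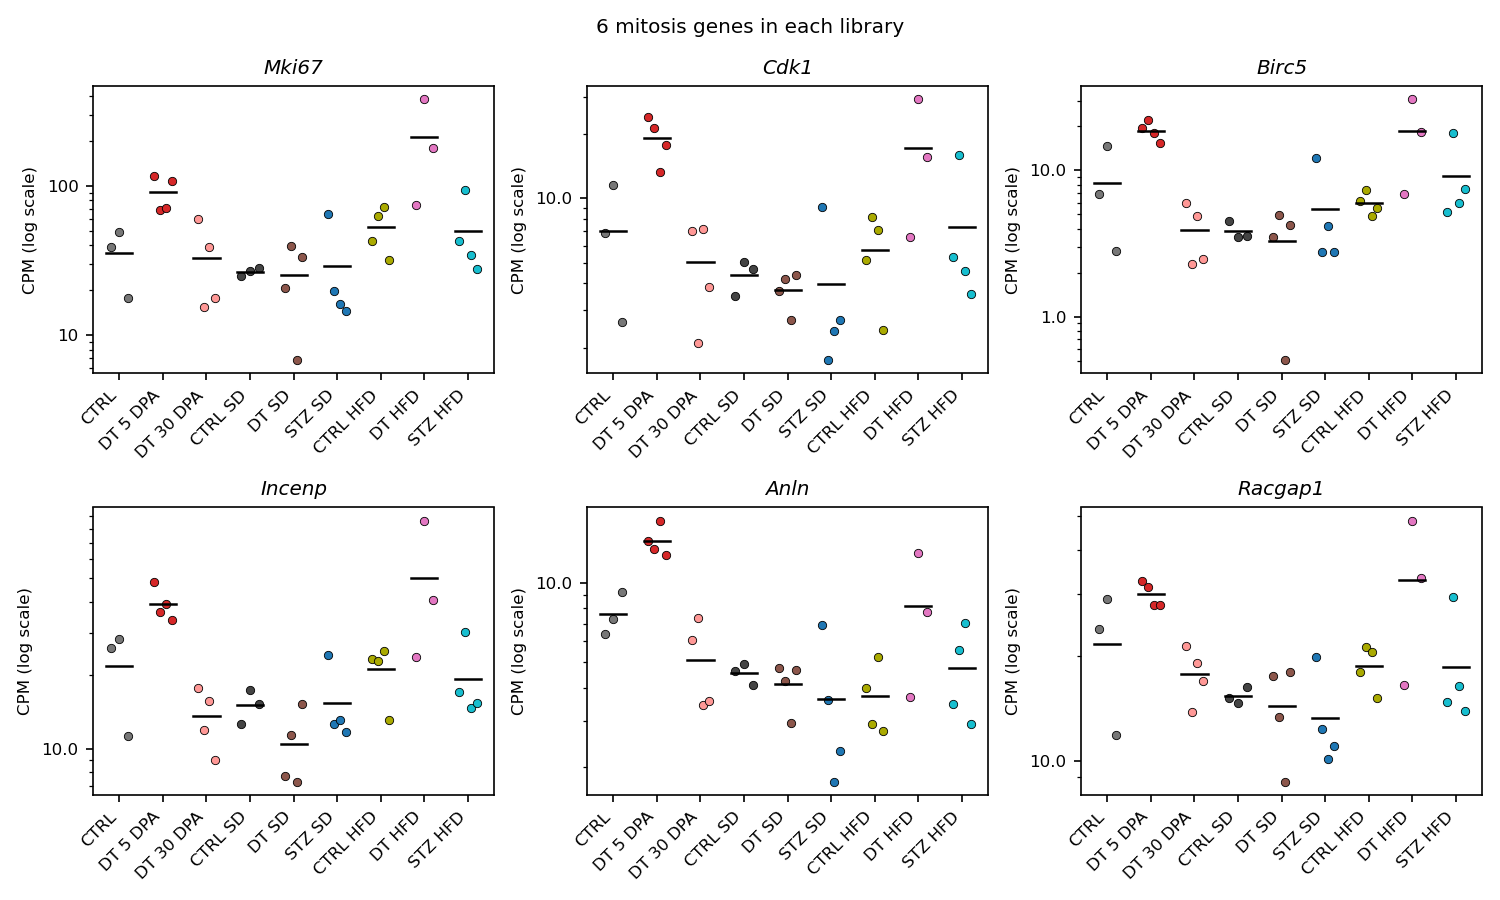
CPM (log scale, a separate axis for each gene) of Mki67, Cdk1, Birc5, Incenp, Anln and Racgap1 in each library, by group; points are libraries and bars group means. In all 6 genes the 4 libraries at DT 5 DPA lie above the 4 at DT 30 DPA, and DT HFD replicate 2 is the top point for each gene but Anln.

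Between 5 and 30 days after DT the mitosis genes fell together. All 39 were lower at 30 days, 33 of them past the threshold, and in all 39 every library at 30 days lay below every library at 5 days. Over all genes tested 13.9% were called lower and 30.5% in either direction, and 16.5% lay below with no overlap. The median log2 fold change was -1.63 (range -2.25 to -0.75), against 0.02 over all genes, of which 51.3% were estimated above 0. All 39 had an unadjusted p below 0.05, as did 41.4% of all genes. All 4 genes of the chromosomal passenger complex fell, as did all 7 spindle motors and assembly factors, 7 of 8 kinetochore and checkpoint genes, 6 of 8 cyclins and kinases, 5 of 6 cytokinesis genes, 2 of 3 anaphase genes, and Top2a and Foxm1.

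Incenp had the smallest adjusted p. It was at 48.3, 36.5, 39.2 and 33.9 CPM at 5 days and at 17.8, 11.9, 15.6 and 8.96 CPM at 30 days (log2 fold change -1.54, SE 0.35, adjusted p = 0.00236). Birc5, the survivin subunit of the same complex, had the largest fall, from 19.4, 22.0, 18.0 and 15.3 CPM to 6.00, 2.30, 4.87 and 2.48 CPM. Its highest library at 30 days was far below its lowest at 5 days (-2.25, SE 0.58, adjusted p = 0.00504). The other subunits fell by similar amounts, Aurkb by 1.98 (adjusted p = 0.0086) and borealin (Cdca8) by 1.87 (adjusted p = 0.0111) on the log2 scale.

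Of the cytokinesis genes, Prc1 went from 36.7, 27.0, 29.0 and 25.6 CPM to 13.2, 4.47, 10.2 and 4.01 CPM (-1.89, SE 0.47, adjusted p = 0.00389). Anln went from 14.4, 13.4, 17.2 and 12.7 CPM to 6.06, 7.35, 3.45 and 3.57 CPM (-1.496, SE 0.37, adjusted p = 0.00408). Both fell with a clear gap between the groups, but in Anln the highest library at 30 days was replicate 2, which was among the lowest 2 for most other genes. Racgap1 was the cytokinesis gene that missed the threshold (-0.75, SE 0.29, adjusted p = 0.0514).

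Espl1 fell by 1.98 on the log2 scale (SE 0.49, adjusted p = 0.00405), Plk1, the Polo-like kinase, by 2.03 (SE 0.55, adjusted p = 0.00747) and Cdk1 by 1.92 (SE 0.55, adjusted p = 0.0104). Foxm1 fell by 1.68 (adjusted p = 0.00695), as did Nusap1, which stabilises spindle microtubules (1.68 lower on the log2 scale, adjusted p = 0.00965 in edgeR). The checkpoint kinase Bub1 fell by 1.87 (adjusted p = 0.012) and Top2a by 1.65 (SE 0.55, adjusted p = 0.0256). The 6 genes that missed the threshold were Mki67 (adjusted p = 0.0511), Racgap1, Cdc20 (0.0603), Ccnb1 (-1.31, SE 0.56, adjusted p = 0.0727), Cenpf (0.0759) and Ccnb2 (0.106). For each of these 6 the groups did not overlap either.

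Of the 63 other mitosis genes 31 fell and 1 rose, the kinetochore gene Zwint (1.25, SE 0.30, adjusted p = 0.0035), with a median of -1.27. Iqgap3 (-2.25, adjusted p = 0.00275) and Arhgap11a (-1.49, adjusted p = 0.00425) led those that fell. Of the 36 DNA replication genes 27 fell (median -1.15), led by thymidine kinase Tk1 (-2.10, adjusted p = 9.58e-05), thymidylate synthase Tyms (-1.41) and Mcm7 (-1.20). Of the 20 E2F, DREAM and MuvB genes 4 fell (median -0.40), and Tfdp1 (-0.50), E2f8 (-2.03) and Mybl2 (-1.79) had the smallest adjusted p. Of the 15 anaphase-promoting complex genes 2 rose, Anapc4 (0.51) and Cdc16 (0.42), and 1 fell, Fzr1 (-0.42), an activator of the complex. The last complex is needed in mitosis but its core subunits are present throughout the cell cycle, unlike its activator Cdc20.

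Macrophage genes fell as well, in 10 of 10 cases (median -2.59), to a sum of 513 to 1119 CPM at 30 days, and 7 of 10 mesenchymal genes fell. None of 9 B cell or 10 T cell genes was called (0 of each with an unadjusted p below 0.05), 3 of 7 germinal centre B cell genes fell, and 12 of 14 beta cell genes rose (median 1.32). Of 6 genes of the intestinal crypt, a dividing epithelium, 3 fell, Lyz1 (-2.70), Ascl2 (-2.999) and Defa24 (-8.47), and their sum went from 104 to 707 CPM at 5 days to 45.4 to 80.8 CPM at 30 days. Alpha cell genes rose in 6 of 8 cases and fell in 1, and 3 of 4 delta cell, 2 of 8 duct and 2 of 9 endothelial genes rose. The part of these shifts in the mitosis values was not tested. The count of 33 fell to 14 without DT 30 DPA replicate 4, to 18 without DT 30 DPA replicate 2 and to 19 without DT 5 DPA replicate 1. Without the libraries that held enterocyte RNA, which leaves 1 library at 5 days, 2 genes were called (4.93% of all genes) and the median was -1.15.

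At 30 days the genes were not distinguishable from CTRL. By edgeR 0 of 39 were called (0.233% of all genes in either direction, 1 of 39 with an unadjusted p below 0.05 against 25.3% of all genes, and 0 by DESeq2). The median was -0.58 (range -1.22 to 0.24). The smallest adjusted p was that of Cenpa (-1.07, SE 0.51, adjusted p = 0.185), followed by the kinase Melk (-1.22, SE 0.61, adjusted p = 0.208) and Incenp (-0.68, SE 0.37, adjusted p = 0.252). Mki67 was at 60.3, 15.5, 38.9 and 17.6 CPM at 30 days, and the 3 CTRL libraries lay inside that range (-0.10, SE 0.60, adjusted p = 0.94). Estimates were -0.15 (SE 0.59) for Ccnb1, -0.48 (SE 0.58) for Cdk1, -0.50 (SE 0.58) for Top2a, -0.54 (SE 0.58) for Aurkb and -0.56 (SE 0.48) for Foxm1, each with overlap of the groups. Leaving out 1 library at a time moved the median between -0.96 (without CTRL replicate 3) and -0.14 (without CTRL replicate 2). Without the libraries with enterocyte RNA the median was 0.09, so the direction of this comparison turned with them.

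From 30 days to 10 weeks on SD there was no detectable change. The median log2 fold change of DT SD against DT 30 DPA was -0.34, and 0 of 39 were called (0.0568% of all genes, 0 of 39 with an unadjusted p below 0.05 against 11% of all genes, and 0 by DESeq2). Ccnf had the smallest adjusted p (-0.89, SE 0.48, adjusted p = 0.517), followed by Ccnb2 (-0.91, SE 0.62, adjusted p = 0.634) and Aurka (-0.61, SE 0.41, adjusted p = 0.634). With single libraries left out the median ran from -0.56 (without DT 30 DPA replicate 2) to -0.13 (without DT SD replicate 3).

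At 10 weeks on SD, neither ablation was accompanied by a called change in any of the 39 genes. DT SD against CTRL SD had a median of -0.22 with 0 called (0.0341% of all genes) and STZ SD against CTRL SD a median of 0.11 with 0 called (0.00568% of all genes). In both comparisons 0 of 39 had an unadjusted p below 0.05, against 7.95% and 11.3% of all genes, and DESeq2 called 0. Cenpa was at 6.58, 6.63 and 6.74 CPM in CTRL SD and at 2.29, 4.46, 1.09 and 6.53 CPM in DT SD. The groups just missed overlapping, and the difference did not pass (-0.88, SE 0.51, adjusted p = 0.679). Only 2 of the 39 genes lay below CTRL SD with no overlap, against 8.58% of all genes. Next in order in the DT comparison were Incenp (-0.53, SE 0.38, adjusted p = 0.737) and Ccnb2 (-0.85, SE 0.66, adjusted p = 0.763). After STZ they were Foxm1 (0.69, SE 0.49, adjusted p = 0.755), the chromokinesin Kif4 (0.61, SE 0.59, adjusted p = 0.878) and Cenpe, a kinetochore motor (0.54, SE 0.53, adjusted p = 0.88). STZ SD replicate 1 was the highest library of its group for 38 genes. It also held 11103 CPM of enterocyte RNA and the highest T cell sum of its group, 432 CPM. STZ SD replicate 4 held 20305 CPM of enterocyte RNA and had the lowest mitosis sum of the group. The part of enterocyte or T cell RNA in the mitosis values of either library was not tested. Without STZ SD replicate 1 the median after STZ turned to -0.51, and without DT SD replicate 3 the median after DT turned to 0.02.

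STZ SD against DT SD had a median of 0.30 with 0 of 39 called (2.56% of all genes, 0 with an unadjusted p below 0.05 against 19.4% of all genes, and 0 by DESeq2). Cenpa (0.99, SE 0.48, adjusted p = 0.26), Incenp (0.57, SE 0.35, adjusted p = 0.391) and Ccnf (0.78, SE 0.48, adjusted p = 0.391) led the order. Without STZ SD replicate 1 the median turned to -0.34, and without DT SD replicate 3 it was 0.10.

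The HFD in untreated mice went with estimates above 0 for 37 of 39 genes (52.2% of all genes) and no call. CTRL HFD against CTRL SD had a median of 0.64 (range -0.29 to 1.11), and edgeR called 0 of 39 and 0% of all genes, with 0 of 39 at an unadjusted p below 0.05 against 2.49% of all genes, and 0 by DESeq2. In 9 genes the CTRL HFD libraries lay above CTRL SD with no overlap, against 3.46% of all genes. Hmmr (1.01, SE 0.56), Ect2 (0.74, SE 0.43) and the cytokinesis motor Kif20a (0.79, SE 0.47) had the smallest p, and each had an adjusted p of 1. Mki67 was at 24.9, 26.8 and 28.2 CPM on SD and at 42.8, 63.3, 72.7 and 31.9 CPM on HFD, and these did not overlap. The exceptions to the direction were Anln (-0.29) and Espl1 (-0.03).

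**Figure D4:**
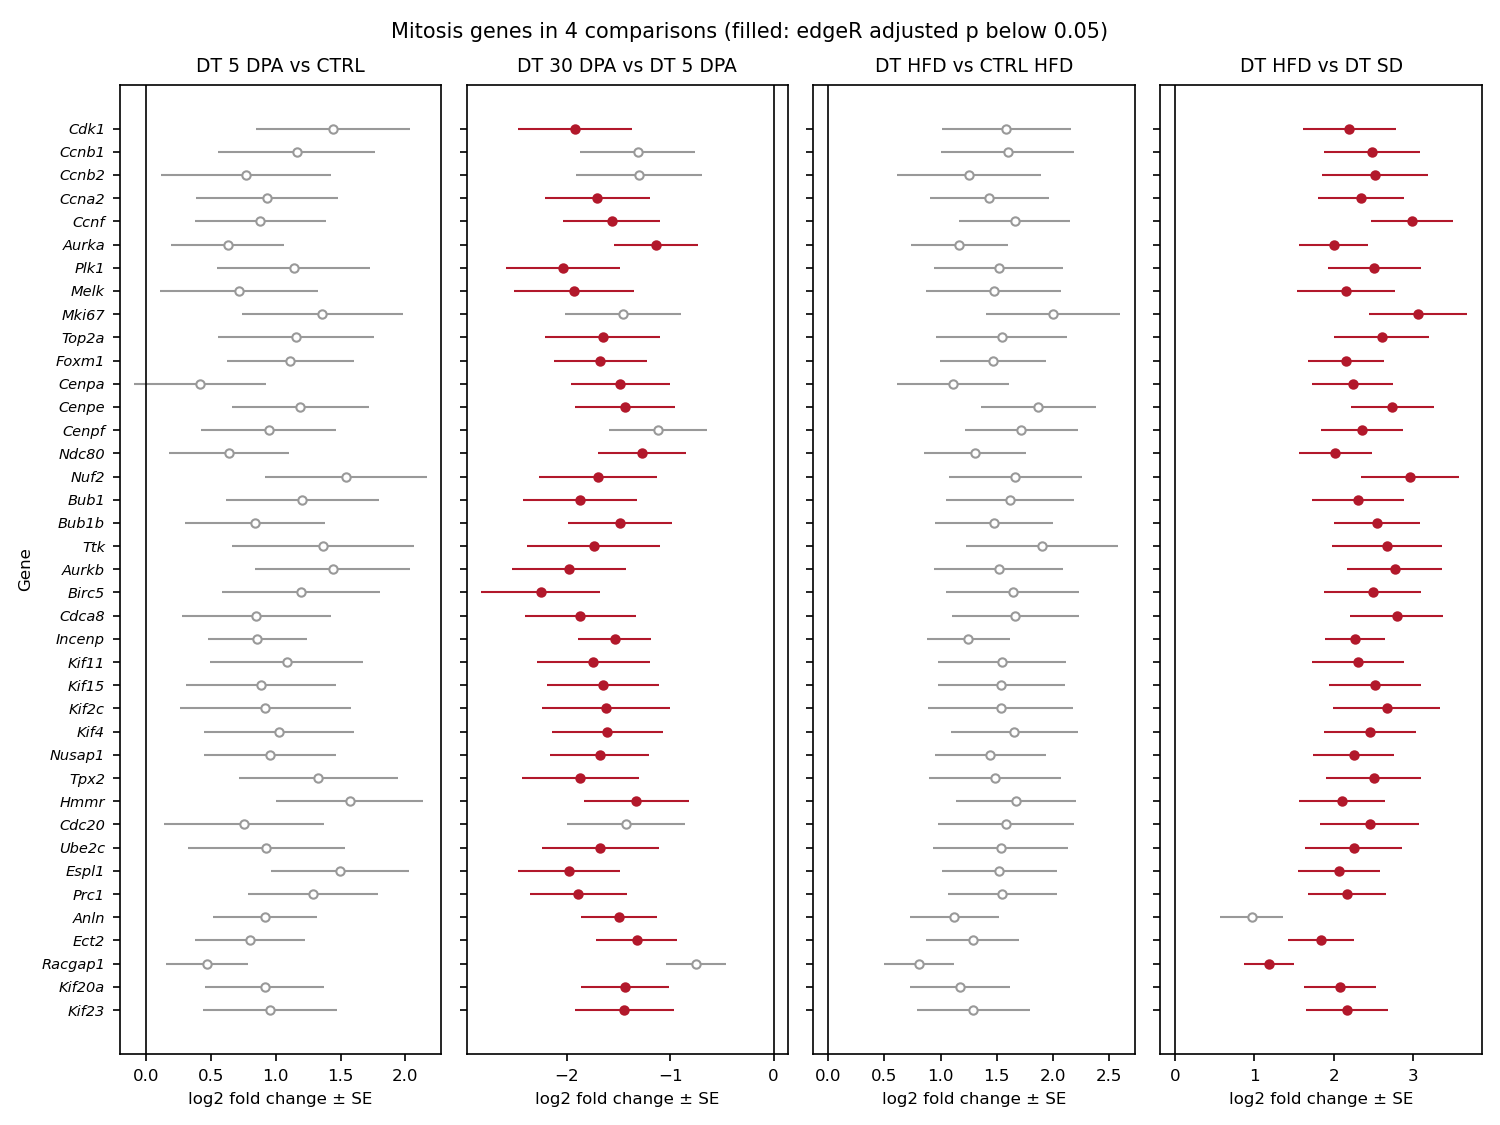
Log2 fold change with its SE for each of the 39 genes, by role, in 4 comparisons; filled points passed an adjusted p of 0.05 in edgeR. All 39 points lie above 0 for DT 5 DPA against CTRL and DT HFD against CTRL HFD with none filled, 33 are filled and negative for DT 30 DPA against DT 5 DPA, and 38 are filled and positive for DT HFD against DT SD.

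In mice that received DT, the level was higher on HFD than on SD. All 39 genes were estimated higher, 38 of them past the threshold, against 15% of all genes called higher and 23.5% called in either direction. The median log2 fold change was 2.34 (range 0.97 to 3.07), and 49.2% of all genes were estimated above 0. All 39 had an unadjusted p below 0.05, as did 38.9% of all genes. In 36 genes each DT HFD library lay above each DT SD library, against 20.7% of all genes, and the exceptions were Bub1, Racgap1 and Anln. All 8 cyclins and kinases, all 8 kinetochore and checkpoint genes, all 4 passenger complex genes, all 7 spindle genes and all 3 anaphase genes rose, with role medians between 2.25 and 2.63. Among the cytokinesis genes 5 of 6 rose, with a median of 1.96.

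Mki67 had the largest difference, with 20.7, 39.5, 6.82 and 33.6 CPM on SD and 74.4, 381 and 178 CPM on HFD (3.07, SE 0.62, adjusted p = 0.00459). The HFD libraries were all above the SD libraries but were themselves far apart. Incenp, at 7.70, 11.4, 7.32 and 15.3 CPM on SD and 23.7, 86.5 and 40.7 CPM on HFD, had the smallest adjusted p (2.27, SE 0.38, adjusted p = 0.00296). Ccnf was at 1.56, 2.16, 1.01 and 1.15 CPM on SD and at 6.47, 17.9 and 10.8 CPM on HFD (2.98, SE 0.52, adjusted p = 0.00315).

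Of the kinetochore genes, Cenpe was at 3.36, 7.62, 1.26 and 7.24 CPM on SD and at 12.8, 58.9 and 26.2 CPM on HFD (2.74, SE 0.52, adjusted p = 0.00352). Nuf2, a subunit of the complex that grips microtubules, rose by 2.96 (SE 0.62, adjusted p = 0.00466), the checkpoint protein Bub1b by 2.54 (adjusted p = 0.00496) and Cenpf by 2.36 (adjusted p = 0.00515). In the passenger complex, Cdca8 rose by 2.79 (adjusted p = 0.00466) and Aurkb by 2.77 (adjusted p = 0.00505). Aurka rose by 2.00 and Kif20a by 2.08, each with an adjusted p of 0.00515, and Foxm1 by 2.16 (adjusted p = 0.00534). Of the other 26 genes called, the largest adjusted p was 0.0154, for Melk. Anln, at 4.75, 4.24, 2.95 and 4.66 CPM on SD and 3.71, 13.0 and 7.73 CPM on HFD, was the gene that did not pass (0.97, SE 0.39, adjusted p = 0.0728).

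DT HFD replicate 2 was the highest DT HFD library for all 39 genes. Without it edgeR called 0 of 39 mitosis genes and 0 genes in all, and the median was 1.73. Without the 3 libraries richest in lymphocyte RNA (CTRL replicate 2, STZ HFD replicate 2 and DT HFD replicate 2) 2 were called, Incenp and Ccnf, and 0.517% of all genes. DT HFD replicate 1 held 2514 CPM of enterocyte RNA and was the lowest DT HFD library for all 39 genes. Without the enterocyte libraries 39 were called (35% of all genes) and the median was 2.73.

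Other cell cycle lists rose beside them. Of the 63 other mitosis genes 53 rose and 1 fell (median 1.85), led by Kif22 (1.85), the condensin subunit Ncaph (3.15) and Bub3 (0.64). Of the 36 DNA replication genes 34 rose (median 1.51), led by Mcm7 (1.42), Chaf1a (2.32) and Pcna (1.28). Of the 20 E2F, DREAM and MuvB genes 11 rose and 1 fell (median 0.53), led by Mybl2 (2.96), Mybl1 (3.15) and E2f8 (3.02). Of the 15 anaphase-promoting complex genes 2 rose, the activator Fzr1 (0.64) and the subunit Anapc15 (0.82), and 2 fell, Anapc4 (-0.32) first.

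All 7 germinal centre B cell genes rose in the same comparison (median 3.31), as did 7 of 9 B cell genes (2.11) and 3 of 10 T cell genes (1.79). The germinal centre sum was 24.4, 43.8, 18.4 and 49.3 CPM on SD and 105, 316 and 99.8 CPM on HFD, highest in DT HFD replicate 2. B cell genes summed to 1841, 2941 and 2210 CPM on HFD and to 121, 848, 101 and 1074 CPM on SD. Of 14 beta cell genes 8 fell (median -1.25), and their sum was 97218, 30557 and 112165 CPM on HFD against 234018 to 256596 CPM on SD. Macrophage genes rose in 1 of 10 cases. The part of lymphocytes, or of any other cell type, in the mitosis values was not tested.

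**Figure D5:**
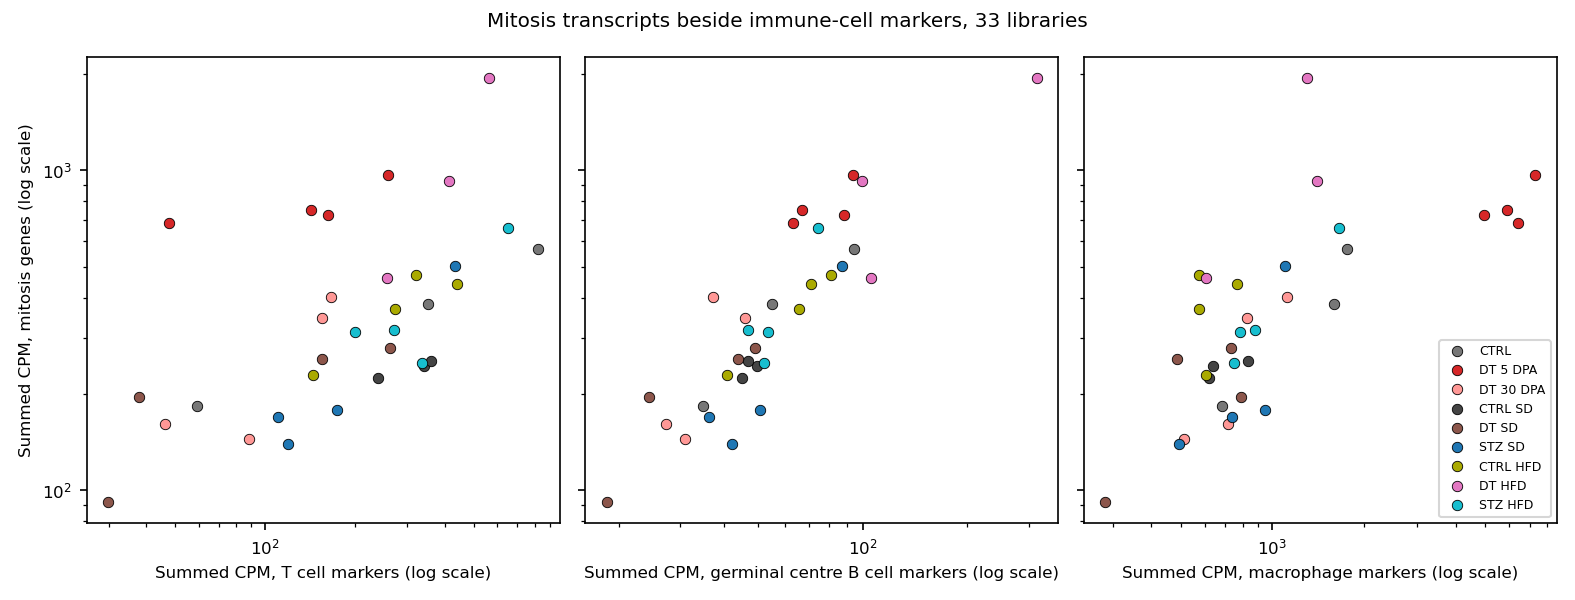
Summed CPM of the 39 mitosis genes (y axis) against the summed CPM of T cell, germinal centre B cell and macrophage marker genes (x axes), both on log scales, for the 33 libraries coloured by group. The DT 5 DPA libraries stand apart on the macrophage axis at 4962 to 7323 CPM, and DT HFD replicate 2 is at the upper right on the germinal centre axis at 316 CPM.

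Across the 9 groups, the library with the highest mitosis sum was also the highest for T cell genes in 8, for DNA replication genes in 8 and for germinal centre B cell genes in 7. For other mitosis genes, E2F, DREAM and MuvB factors, macrophage genes and intestinal crypt genes it was so in 6 each. B cell genes followed in 5 and erythroid genes in 3. Acinar, mesenchymal, enterocyte and anaphase-promoting complex genes did so in 2 each, and alpha, delta, duct and endothelial genes in 1 each. The library with the highest mitosis sum was the highest for beta cell genes in 0 groups and the lowest for them in 6. The same library was the lowest for anaphase-promoting complex genes in 6, for endothelial and enterocyte genes in 5 each and for alpha and duct genes in 4 each. These are counts over libraries of unequal composition and carry no test. With so few libraries in each group, some matches arise even between unrelated lists.

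Against untreated mice on HFD, DT HFD was estimated higher for all 39 genes and none was called. The median was 1.53 (range 0.81 to 2.00), 52.9% of all genes were estimated above 0, 0.00568% of all genes were called, 38 of 39 had an unadjusted p below 0.05 against 11.9% of all genes, and DESeq2 called 0. In 12 genes the groups did not overlap, against 5.14% of all genes. Cenpe was at 8.93, 11.5, 10.2 and 5.01 CPM in CTRL HFD and at 12.8, 58.9 and 26.2 CPM in DT HFD (1.87, SE 0.51, adjusted p = 0.315). The next were Cenpf (1.72, SE 0.50, adjusted p = 0.33) and Ccnf (1.66, SE 0.49, adjusted p = 0.33), and the largest estimate, 2.00, was that of Mki67. Without the enterocyte libraries, which takes out DT HFD replicate 1 here and 7 libraries of other groups from the shared estimate of the spread, 30 genes were called, with 4.44% of all genes, and the median was 1.89. Without DT HFD replicate 1 alone 0 were called. Without the 3 lymphocyte-rich libraries, or without DT HFD replicate 2 alone, 0 were called and the median was 0.83. None of the 7 germinal centre B cell genes was called, but 6 had an unadjusted p below 0.05 and their median was 1.78.

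Whether DT acted differently on the 2 diets was tested as an interaction, the DT difference on HFD minus that on SD. All 39 estimates were above 0, as were 50.1% of all genes, with a median of 1.80 (range 0.90 to 2.31). None was called (0% of all genes), 29 of 39 had an unadjusted p below 0.05 against 15.6% of all genes, and DESeq2 called 0. Incenp (1.78, SE 0.53), Ccnf (2.31, SE 0.71) and Espl1 (2.09, SE 0.73) each had an adjusted p of 0.282. Without the enterocyte libraries 2 were called, Ccnf (2.59, adjusted p = 0.0488) and Incenp (2.10, adjusted p = 0.0482), with 1.89% of all genes. Without DT HFD replicate 2 the median was 1.12 and 0 were called. The larger difference after DT on HFD than on SD therefore did not pass the test with all libraries.

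After STZ on HFD the genes were close to untreated HFD. STZ HFD against CTRL HFD had a median of 0.06 (range -0.26 to 0.93) with 0 of 39 called (0.471% of all genes, 0 with an unadjusted p below 0.05 against 13.7% of all genes, and 0 by DESeq2). The leading genes were Ttk (0.93, SE 0.64, adjusted p = 0.564), Cenpa (0.56, SE 0.47, adjusted p = 0.657) and Birc5 (0.61, SE 0.56, adjusted p = 0.698). STZ HFD replicate 2 was the highest of its group for 38 genes and also held the most T cell RNA, 654 CPM, and without it the median turned to -0.34. STZ HFD against STZ SD was above 0 for all 39 genes and 50.6% of all genes tested (median 0.64, range 0.05 to 0.98), and 0 were called (0.136% of all genes, 0 with an unadjusted p below 0.05 against 13% of all genes, and 0 by DESeq2). Prc1 (0.94, SE 0.46, adjusted p = 0.388), Cenpf (0.87, SE 0.48, adjusted p = 0.459) and Kif11 (0.95, SE 0.54, adjusted p = 0.474) came first. This median was 0.27 without STZ HFD replicate 2 and 1.26 without STZ SD replicate 1. It was also over 1.5 times smaller, at 0.40, without STZ SD replicate 4. The interaction of STZ with diet had a median of 0.01 and 0 called (0% of all genes, 0 with an unadjusted p below 0.05 against 6.6% of all genes, and 0 by DESeq2). The smallest p there were those of Anln (0.68, SE 0.55, adjusted p = 0.944), Cenpe (-0.71, SE 0.71, adjusted p = 0.978) and Ube2c, the ubiquitin-conjugating enzyme of the anaphase-promoting complex (0.69, SE 0.83, adjusted p = 0.997). That median moved between -0.42 (without STZ HFD replicate 2) and 0.66 (without STZ SD replicate 1).

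On HFD the 2 agents were also set side by side. STZ HFD was below DT HFD for all 39 genes (median -1.40, range -2.08 to -0.55), while 49.6% of all genes were above it. By edgeR 0 were called (0.341% of all genes), with 33 of 39 at an unadjusted p below 0.05 against 15.6% of all genes, and DESeq2 called 11. Cenpe was at 7.63, 13.4, 6.60 and 4.04 CPM after STZ and at 12.8, 58.9 and 26.2 CPM after DT (-2.03, SE 0.51, adjusted p = 0.0691). The groups overlapped, as they did for 38 of the 39 genes, with Ccnf the exception (5.99% of all genes below with no overlap). Incenp (-1.38, SE 0.37, adjusted p = 0.0841) and Mki67 (-2.08, SE 0.60, adjusted p = 0.099) followed. Of the other lists, 1 E2F, DREAM and MuvB gene fell, Mybl1 (-2.80, adjusted p = 0.0418), as did 1 anaphase-promoting complex subunit, Anapc1 (-0.46, adjusted p = 0.0421). The endothelial gene Egfl7 was called higher after STZ than after DT (1.06, adjusted p = 0.0387). Of the germinal centre B cell genes 1 of 7 fell (median -2.16), and its part in the mitosis values was not tested. Without DT HFD replicate 2 the median shrank to -0.76 and 0 were called. Without DT HFD replicate 1 edgeR called 6 mitosis genes (1.61% of all genes), without STZ HFD replicate 2 it called 2 (100 genes in all), and without the enterocyte libraries 21 (3.27%).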

How the data were processed

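RNA sequencing of mouse islets gave 34 libraries, of which 33 entered a group through their titles and treatment labels. Per the file headers, the authors deposited total counts per gene (11083117 to 18918348 in a grouped library), TPM, RPKM and values headed CPM. The deposited TPM served only to compare levels between genes, and the RPKM were not used. The columns headed CPM do not sum to the same total in each library, so these deposited values were treated as a score of unknown scaling and left unused. The build was mm10 per the submitters' processing notes. Not given in the sources used here are the aligner, counter, gene annotation and strandedness of counting. Reads from overlapping or antisense genes may therefore be mixed.

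Counts were tested with edgeR 4.0.16 (R 4.3.3): filterByExpr (minimum count 10, minimum total 15), TMM scaling, all 9 groups in 1 fit, and the quasi-likelihood test for 15 comparisons, each Benjamini-Hochberg adjusted over 17616 genes at 0.05. The script was tested on simulated data. CPM in the text are TMM-scaled. The TMM factor was lowest, 0.464, in STZ HFD replicate 4, which raised all CPM of that library. Groups were called not overlapping where the ranges of library CPM were separate. DESeq2 1.42.0, limma 3.58.1, Python 3.11.15, pandas 2.3.3 and matplotlib 3.10.9 were also used. The members and the other lists were chosen with earlier results of these data known. Genes were named by rule: every called member (the 12 with the smallest adjusted p where more were called), otherwise the 3 with the smallest adjusted p, plus Mki67, Top2a, Cdk1, Ccnb1, Aurkb and Foxm1 in the first 3 comparisons, and the 3 leading called genes of each further list. Values given outside that rule were chosen after they were seen. Alternatives were DESeq2's size factors and Wald test, 2 other filters, scaling without hormone genes, only the groups compared, the replicate number as a block, each library left out, and the libraries rich in enterocyte or lymphocyte RNA left out. Replicates of 1 group all differed beyond sampling noise. Promoters came from RefSeq (GRCm38.p6) and gene positions from GENCODE M21.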

Additional observations from a re-analysis of the deposited data

Results flagged for a closer look

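In groups of 4 libraries, 13 of 78 sets of values had a library far from the other 3 by Dixon's test, which chance gives in about 5% of groups. Libraries share their composition across genes, so these are not 13 separate events.

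STZ SD replicate 1 stood above the other 3 STZ SD libraries in the summed level of the 39 mitosis genes, 501 CPM, and in Mki67 (64.8 CPM), Top2a (56.4 CPM), Cdk1 (9.09 CPM), Birc5 (12.1 CPM) and Incenp (24.4 CPM). The same library held 11103 CPM of enterocyte and 432 CPM of T cell marker RNA. STZ SD replicate 4 held 20305 CPM of enterocyte RNA and had the lowest mitosis sum of the group. The part of enterocyte or T cell RNA in the mitosis values of either library was not tested.

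STZ HFD replicate 2 stood above its group in the sum, 662 CPM, and in Cdk1 (15.9 CPM), Foxm1 (11.02 CPM), Incenp (30.01 CPM) and Racgap1 (29.3 CPM). Its T cell sum was 654 CPM and its macrophage sum 1653 CPM, both the highest of the group. The part of these cells was not tested. The TMM factor of STZ HFD replicate 4 was 0.464, the lowest of all grouped libraries, which raised its CPM. Before this scaling the mitosis genes took 0.0361%, 0.0741%, 0.0295% and 0.0116% of the counts of the STZ HFD libraries, in replicate order. Dixon's test was not run on these shares.

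On the low side, Espl1 was at 1.18 CPM in DT SD replicate 3 and Aurkb at 2.83 CPM in CTRL HFD replicate 5, each far below the other 3 libraries of its group.

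The library titled as untreated on HFD but labelled as treated with DT entered no comparison. Its mitosis sum was 852 CPM, against 230 to 471 CPM in CTRL HFD and 460 to 1937 CPM in DT HFD, and all 39 genes were above each CTRL HFD and each CTRL SD library. It held Mki67 at 103 CPM, Top2a at 106 CPM, Cdk1 at 18.5 CPM and Birc5 at 20.5 CPM. Its T cell sum was 503 CPM (145 to 441 CPM in CTRL HFD), its macrophage sum 1042 CPM (572 to 765 CPM) and its germinal centre B cell sum 78.2 CPM (40.8 to 81.4 CPM). Its group is not assigned from these values.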

How the results depend on the processing

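Recounted under the alternatives, the number of called mitosis genes stayed within 1.5 times its reported value in 245 cases and left that range in 15. The reported value was above 0 only for DT 30 DPA against DT 5 DPA and DT HFD against DT SD. Most of the 245 cases are therefore a 0 that stayed 0. DESeq2's Wald test called 2 genes for DT 5 DPA against CTRL and 11 for STZ HFD against DT HFD, where edgeR called 0. Leaving out libraries mattered most. Leaving out each in turn gave 14 to 38 for DT 30 DPA against DT 5 DPA, 0 to 39 for DT HFD against DT SD, 0 to 6 for STZ HFD against DT HFD, 0 to 1 for DT 5 DPA against CTRL and 0 for the other comparisons. The libraries that mattered were DT 30 DPA replicates 2 (18) and 4 (14) and DT 5 DPA replicate 1 (19), then DT HFD replicate 2 (0), DT HFD replicate 1 (6), STZ HFD replicate 2 (2) and CTRL replicate 2 (1). Without the enterocyte libraries the counts were 2 for DT 30 DPA against DT 5 DPA, 30 for DT HFD against CTRL HFD, 21 for STZ HFD against DT HFD and 2 for the interaction of DT with diet. Without the 3 lymphocyte-rich libraries they were 4 for DT 5 DPA against CTRL and 2 for DT HFD against DT SD. A group left with 1 library borrows its spread from the rest of the fit. The cause of these shifts was not tested.

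Among single genes, signs turned only for ones that had not passed the test. For DT 30 DPA against CTRL, Mki67 went from -0.10 to 0.46, Ccnb1 to 0.86, Cdk1 to 0.34, Aurkb to 0.30 and Top2a to 0.17 without the enterocyte libraries. Without the lymphocyte-rich libraries Mki67 was at 0.22, Ccnb1 at 0.56 and Cdk1 at 0.081, with the same values without CTRL replicate 2. Without DT 30 DPA replicate 2 Mki67 and Ccnb1 were both at 0.14, and without replicate 4 at 0.11 and 0.069. Over all single libraries left out, the range was -0.60 to 0.22 for Mki67, -0.73 to 0.56 for Ccnb1 and -0.87 to 0.081 for Cdk1. Without the enterocyte libraries Kif4 (-0.15) and Cenpe (-0.00612) turned for STZ SD against CTRL SD and Ccnf (-0.031) for STZ SD against DT SD, and Kif4 ranged from -0.093 without STZ SD replicate 1 to 0.84 without replicate 3.

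With the replicate number as a block, the pairing from the titles left 31 calls for DT 30 DPA against DT 5 DPA, 38 for DT HFD against DT SD and 0 for the others, and it put Mki67 at 0.038 and Ccnb1 at 0.014 for DT 30 DPA against CTRL. Same-numbered libraries of different groups showed no shared deviation at the median (115 pairs, median r 0.0077, range -0.76 to 0.74, 42 over 0.1). Differently numbered libraries were alike in this (368 pairs, median r 0.0013, range -0.80 to 0.75, 124 over 0.1). With so few libraries in each group, these correlations cannot exclude that the numbers pair the samples. No mitosis gene had a count of 0 in a grouped library, but counts were low in some, down to 2 for Ccnb2 in DT SD replicate 3.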

Other observations

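The ratio of the summed mitosis level to the summed level of 36 DNA replication genes, a description with no test, was 0.884, 0.839, 0.806 and 0.733 at DT 5 DPA, above the 3 CTRL libraries at 0.56, 0.616 and 0.47. At DT 30 DPA it was 0.717, 0.435, 0.659 and 0.45, so that the highest library at 30 days came close to the lowest at 5 days. In DT HFD it was 0.702, 1.11 and 0.971, against 0.638, 0.695, 0.659 and 0.528 in CTRL HFD and 0.532, 0.562, 0.296 and 0.566 in DT SD.

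Mki67 and Top2a did not keep 1 ratio across groups. Mki67 CPM divided by Top2a CPM was 1.27, 1.55 and 1.71 in DT HFD and 0.92, 0.822 and 0.945 in CTRL. The range in DT HFD overlapped that of every other group except CTRL and CTRL SD, and so also that of CTRL HFD.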
